A study of Rattus norvegicus with 7 samples.

Results

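Voltage-gated calcium and sodium channels are the proteins that turn a change of membrane voltage into an inward current, and this account covers their genes in the cerebellum of rat pups. Members were the genes whose symbol begins with Cacna1 or Cacna2d, or is one of Cacnb1 to Cacnb4, or is an Scn gene ending in a or b. Probes were tied to symbols through their RefSeq accession, which found 38 probes of 30 such genes among 30367 probes. Of these, 33 probes of 26 genes passed the filter on dim probes, out of 19991 genes and unnamed probes tested. Tissue came from female Wistar pups aged 21 days. In the methyl donor deficiency group (MDD, 3 pups), dams ate food deficient in vitamin B12 and folate, with choline lowered. Dams of the control group (CTRL, 4 pups) ate a standard diet. Both diets ran from 1 month before pregnancy to weaning, so the pups were exposed before and after birth, and the labels give no genotype or drug for either group. RNA was hybridised to 1-colour Agilent arrays, and no label ties pups to litters. The p-values here therefore rest on the spread between pups, some of whom may be siblings.

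Each channel is built around a pore-forming alpha subunit that carries the voltage sensors. In calcium channels, an intracellular beta subunit (Cacnb genes) and an extracellular alpha2delta subunit (Cacna2d genes) bring the pore to the membrane and tune its gating, while the low-voltage or T-type pores work without needing them. Sodium channel beta subunits are small membrane proteins of the immunoglobulin class that set gating and placement on the axon. In the cerebellum, Cacna1a (the P/Q-type pore) carries most calcium current of Purkinje cells. Scn2a and Scn8a are among the sodium pores of granule cell axons and of Purkinje cells firing fast trains.

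Of the 6 channel genes that differed between the diets, 5 were calcium channel genes, which made up 15 of the 26 measured members. Of 26 measured members, 6 were lower in MDD and 0 were higher, by limma at an adjusted p of 0.05 (Benjamini-Hochberg, over everything tested). They were the high-voltage calcium pores Cacna1e and Cacna1b, the auxiliary calcium genes Cacna2d2, Cacna2d1 and Cacnb4, and the sodium pore Scn2a. Over everything tested, 7.72% were called lower and 12.7% higher, which makes 20.4% in either direction. At an unadjusted p under 0.05, 10 members were lower and 0 higher, where 18.3% of everything tested was lower. Groups did not overlap for 8 members (5 calcium and 3 sodium), all lower in MDD, where 16.4% of everything tested lay apart and lower and 20.1% apart and higher. The median log2 difference was -0.19 over the members and -0.03 over everything tested. In whole tissue, fewer cells of a type and less RNA per cell cannot be told apart.

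Windows of 250 bases before the RefSeq gene start are shown for 4 of the lower members, because they run from few to many CpGs within 1 family, and CpG is the dinucleotide that DNA methyltransferases act on. Every CpG is in capitals, and the rest is in lower case, 5′ to 3′ on the gene's strand. The windows are from RefSeq's GRCr8 assembly, at chr13:69444811-69445060 (minus strand) for Cacna1e, chr3:27944286-27944535 (minus strand) for Cacna1b, chr8:116950856-116951105 (plus strand) for Cacna2d2 and chr3:70710706-70710955 (plus strand) for Scn2a.
Cacna1e: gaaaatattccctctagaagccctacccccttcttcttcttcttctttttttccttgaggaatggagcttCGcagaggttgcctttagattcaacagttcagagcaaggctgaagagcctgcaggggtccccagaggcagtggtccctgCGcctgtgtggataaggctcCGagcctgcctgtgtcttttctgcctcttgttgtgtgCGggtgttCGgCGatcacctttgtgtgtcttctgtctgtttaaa
Cacna1b: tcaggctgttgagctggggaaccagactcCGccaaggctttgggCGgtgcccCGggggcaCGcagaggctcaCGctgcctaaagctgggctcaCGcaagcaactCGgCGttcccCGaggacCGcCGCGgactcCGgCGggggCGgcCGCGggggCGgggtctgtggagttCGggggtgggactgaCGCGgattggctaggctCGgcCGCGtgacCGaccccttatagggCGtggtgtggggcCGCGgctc
Cacna2d2: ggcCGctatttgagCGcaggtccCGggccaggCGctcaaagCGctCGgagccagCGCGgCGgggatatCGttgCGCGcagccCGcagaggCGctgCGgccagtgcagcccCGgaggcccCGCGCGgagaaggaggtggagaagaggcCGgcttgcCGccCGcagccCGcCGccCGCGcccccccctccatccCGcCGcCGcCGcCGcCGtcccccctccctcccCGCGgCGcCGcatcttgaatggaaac
Scn2a: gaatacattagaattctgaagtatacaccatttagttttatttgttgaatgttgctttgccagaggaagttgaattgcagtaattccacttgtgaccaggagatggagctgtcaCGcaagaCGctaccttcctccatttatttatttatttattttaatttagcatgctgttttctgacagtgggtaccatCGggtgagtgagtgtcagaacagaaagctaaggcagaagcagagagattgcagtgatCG
Cacna1e has 6 CpGs in its window and Scn2a 4, against 28 for Cacna1b and 36 for Cacna2d2. Of the measured members, 17 have a window, and their 20 windows held a median of 24.5 CpGs, where all 33469 windows held a median of 5. The 7 windows of lower members ranged from 4 to 37 CpGs with a median of 32, and the 13 windows of the other members from 1 to 53 with a median of 4. The 7 windows come from 5 genes, and Cacna2d1 alone supplied those with 36, 37 and 32 CpGs, the first and second of which overlap in sequence. The median of 32 therefore leans on that gene. The ranges overlap, some genes have more than 1 window, and the difference was not tested. A GC box (GGGCGG on either strand, which itself contains a CpG) was present in 10 of the 20 member windows and in 30.5% of all windows. A TATA box (TATAAA on either strand) was present in 1 of the 20, that of the muscle gene Cacna1s, and in 12.9% of all windows. Methylation was not measured in this series.

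Signals are given as log2 of intensity over the 75th percentile of the same array. The scanner software marked 74.1% to 79.6% of an array's spots as well above background and 0 as saturated. The labelled tissue was borne out by its markers, since 9 of 10 Purkinje and 9 of 10 granule cell genes were measured, whereas the forebrain gene Tbr1 did not pass the filter. Of 9 granule markers 3 were lower and 0 higher, with a summed relative signal of 70.7 to 79.3 in MDD and 77.3 to 86.7 in CTRL. Of 9 Purkinje markers 2 were lower and 2 higher, with a sum of 423 to 521 in MDD and 352 to 393 in CTRL. These sums are of linear signal, in which the brightest genes weigh most. The median log2 difference was 0.03 over the Purkinje markers (4 means lower and 5 higher) and -0.38 over the granule markers. Of 6 microglia markers 4 were higher and 1 lower. The part of cell type shares in the channel results was not tested. All arrays shared 1 slide and 1 scan, but the first row of the slide held only CTRL pups (replicates 1 to 3), and the second held CTRL replicate 4 and all 3 MDD pups.

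Among high-voltage calcium pores, all 5 measured genes had a lower mean in MDD and 2 passed. Cacna1e, the R-type pore, gave -2.58, -1.63 and -2.52 in the MDD pups, against -0.90, -1.60, -1.47 and -1.20 in the CTRL pups. MDD replicates 1 and 3 lay far below every control, while MDD replicate 2 lay just under the lowest of them. The mean was 1.93-fold lower in MDD (log2 -0.95, SE 0.26, adjusted p = 0.0390 by limma). Cacna1b, the N-type pore of presynaptic terminals, gave 0.29, 0.79 and -0.19 in MDD, against 1.05, 1.09, 1.04 and 1.17 in CTRL. Controls were tightly grouped and all MDD pups fell below them, with replicate 2 again the nearest. It was 1.73-fold lower (log2 -0.79, SE 0.21, adjusted p = 0.0355), and its signal averaged 10 spots per array.

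The other high-voltage pores did not pass. Cacna1c, the L-type pore of the brain and heart, gave -1.99, -1.56 and -2.46 in MDD, against -1.38, -1.59, -1.56 and -1.45 in CTRL. MDD replicate 2 lay inside the control range and the others below it (log2 -0.51, SE 0.20, adjusted p = 0.101). Cacna1a, the P/Q-type pore, gave 0.38, 1.08 and 0.62 in MDD, against 1.21, 0.87, 1.02 and 0.98 in CTRL. Here too MDD replicate 2 sat among the controls while replicates 1 and 3 were lower (log2 -0.33, SE 0.18, adjusted p = 0.211). Cacna1s, the pore of skeletal muscle, spread from -6.13 to -3.60 among the CTRL pups, and its difference of -0.06 carried a 95% interval from -1.31 to 1.20. Cacna1f, known from the retina, was well above background on 0 arrays.

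Low-voltage pores, which open near rest and drive rebound bursts, had lower means in MDD without passing. Cacna1g, the T-type pore of Purkinje and deep nuclear cells, gave 1.50, 1.69 and 0.98 in MDD, against 1.96, 1.66, 1.83 and 1.93 in CTRL. Only MDD replicate 2 reached the control range, and by a narrow margin (log2 -0.46, SE 0.18, adjusted p = 0.102). Cacna1h gave -2.16, -2.06 and -3.09 in MDD, against -2.27, -2.00, -2.36 and -1.80 in CTRL. MDD replicate 3 alone set it apart (log2 -0.33, SE 0.26, adjusted p = 0.382). Cacna1i had a difference of -0.04, with a 95% interval from -0.41 to 0.34.

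Of the auxiliary calcium subunits, 3 of 7 measured were lower in MDD. Cacna2d2, an alpha2delta subunit whose loss causes ataxia in ducky mice, gave -5.28, -4.50 and -5.10 in MDD, against -4.10, -3.94, -4.14 and -4.17 in CTRL. No MDD pup reached the controls, and replicate 2 came closest. It was 1.83-fold lower (log2 -0.87, SE 0.19, adjusted p = 0.0195), on a dim probe that was well above background on all 7 arrays. The size of this difference varied with the processing. It was smaller in the authors' deposited table (log2 -0.44) and with normexp background correction (log2 -0.40, not called). Cacna2d1, an alpha2delta subunit that binds gabapentin, gave 1.01, 1.32 and 1.17 in MDD, against 1.64, 1.49, 1.60 and 1.60 in CTRL. The groups were apart by a small margin (1.34-fold lower, log2 -0.42, SE 0.12, adjusted p = 0.0434). Cacna2d3 was nearly level, at -0.62, -0.62 and -0.54 in MDD, against -0.52, -0.57, -0.50 and -0.69 in CTRL, with a 95% interval for its difference from -0.27 to 0.23. Cacna2d4 was well above background on 0 arrays.

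Cacnb4, the beta subunit mutated in the ataxic lethargic mouse, gave 1.45, 1.53 and 1.54 in MDD, against 2.03, 1.88, 2.06 and 1.90 in CTRL. Its MDD pups lay close together and well under all controls (1.38-fold lower, log2 -0.46, SE 0.11, adjusted p = 0.0265). The other beta subunits did not pass. Cacnb1 gave -0.40, 0.12 and -0.33 in MDD, against -0.06, -0.24, -0.04 and 0.20 in CTRL, and Cacnb2 gave -4.81, -4.66 and -4.98 in MDD, against -4.86, -4.59, -4.39 and -4.59 in CTRL. Both overlapped between the diets (adjusted p = 0.486 and 0.322). Cacnb3 had a mean of 3.69 ± 0.13 (SD, n = 3) in MDD and 3.59 ± 0.20 (SD, n = 4) in CTRL, a difference of 0.10 (adjusted p = 0.641 by limma) whose sign was negative under quantile normalization (-0.30), in the authors' deposited table (-0.27), with the trend with gene length and signal removed (-0.19) and within the second row of the slide (-0.08).

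**Figure D1:**
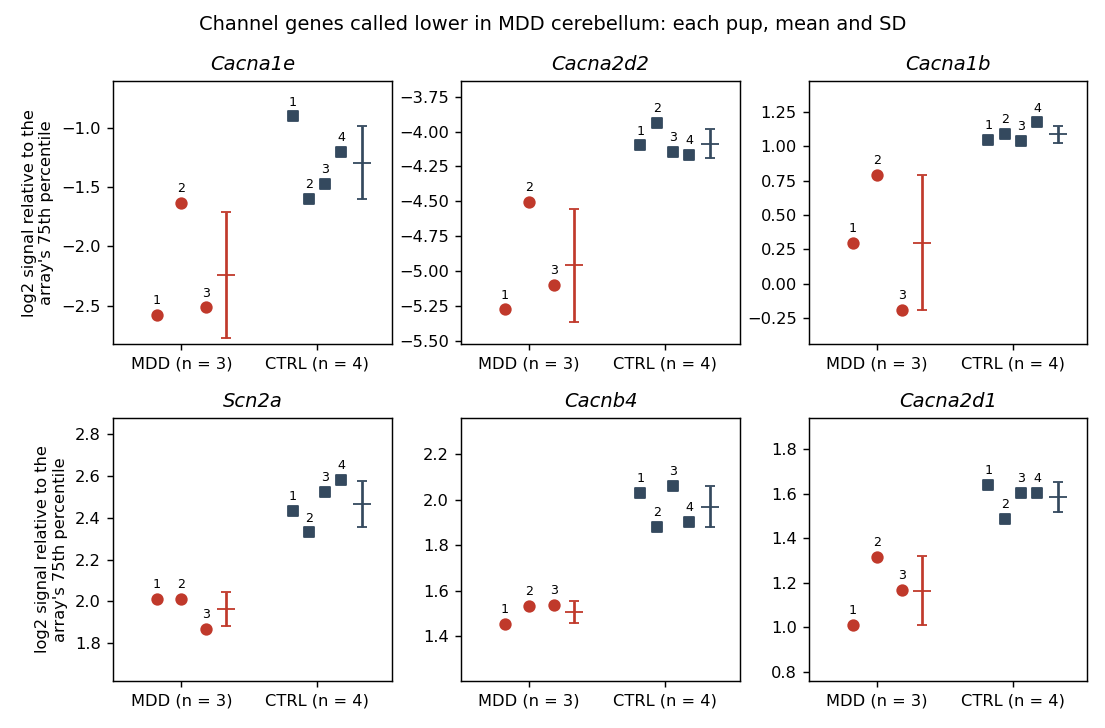
Log2 signal relative to the array's 75th percentile (vertical axes, one scale per gene) for the 6 channel genes called lower, with MDD pups as red circles at the left, CTRL pups as dark squares at the right, replicate numbers above the points, and the mean and SD beside each group. No MDD pup overlaps a CTRL pup in any panel, and MDD replicate 2 is the closest to the controls for Cacna1e, Cacna2d2, Cacna1b and Cacna2d1.

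Sodium channels showed a call for a single pore. Scn2a, a main sodium pore of unmyelinated axons, gave 2.01, 2.01 and 1.87 in MDD, against 2.43, 2.33, 2.53 and 2.58 in CTRL. Both groups were tight and lay apart (1.42-fold lower, log2 -0.50, SE 0.12, adjusted p = 0.0242). Scn8a, the pore of nodes of Ranvier, gave -1.59, -1.03 and -1.78 in MDD, against -0.60, -0.94, -0.89 and -1.02 in CTRL. The groups just failed to touch, and the gene missed the threshold (log2 -0.61, SE 0.20, adjusted p = 0.0603). Scn1a, abundant in inhibitory neurons, gave -0.34, -0.51 and -0.72 in MDD, against -0.33, -0.13, -0.23 and -0.10 in CTRL. Here the highest MDD pup and the lowest control nearly met (log2 -0.33, SE 0.13, adjusted p = 0.105).

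The other sodium pores did not pass. Scn3a, the pore of the embryonic brain, had a difference of -0.06, with a 95% interval from -0.54 to 0.42. The muscle pore Scn4a was well above background on 1 of 3 MDD and 2 of 4 CTRL arrays. Of the pores known from sensory neurons, Scn9a was well above background on 0 arrays, Scn10a on 1 of 3 MDD and 1 of 4 CTRL arrays, and Scn11a on 2 of 3 MDD and 4 of 4 CTRL arrays. Scn3a and Scn2a are neighbouring protein-coding genes on chromosome 3, as are Scn1a and Scn9a. Scn9a did not pass the filter and was not tested, and of the others only Scn2a was called.

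No sodium channel beta subunit passed. Log2 differences were -0.10 for Scn2b, 0.05 for Scn4b and 0.06 for Scn3b. The 95% intervals were -0.67 to 0.48 for Scn2b, -0.46 to 0.56 for Scn4b and -0.31 to 0.44 for Scn3b. Scn4b, the subunit linked to resurgent sodium current in Purkinje cells, gave 0.94, 0.73 and 0.03 in MDD, against 0.78, 0.51, 0.34 and 0.44 in CTRL. Its MDD pups spread on both sides of the controls, and the intervals of Scn2b and Scn4b still allow a difference as large as that of Cacna2d1. The signs of Scn2b, Scn3b and Scn4b turned under quantile normalization.

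Pore-forming and auxiliary genes are set side by side by their counts. Of 15 measured pore-forming genes, 3 were lower, 13 had a lower mean in MDD and the median difference was -0.33. Of 11 auxiliary genes, 3 were lower, 8 had a lower mean and the median was -0.10. Divided by ion, 5 of 15 calcium channel genes were lower with a median of -0.33, and 1 of 11 sodium channel genes with a median of -0.06. Among auxiliary genes all 3 calls fell on calcium subunits. The median genomic length was 165 kb for the calcium and 70 kb for the sodium channel genes. No difference between these classes was tested.

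**Figure D2:**
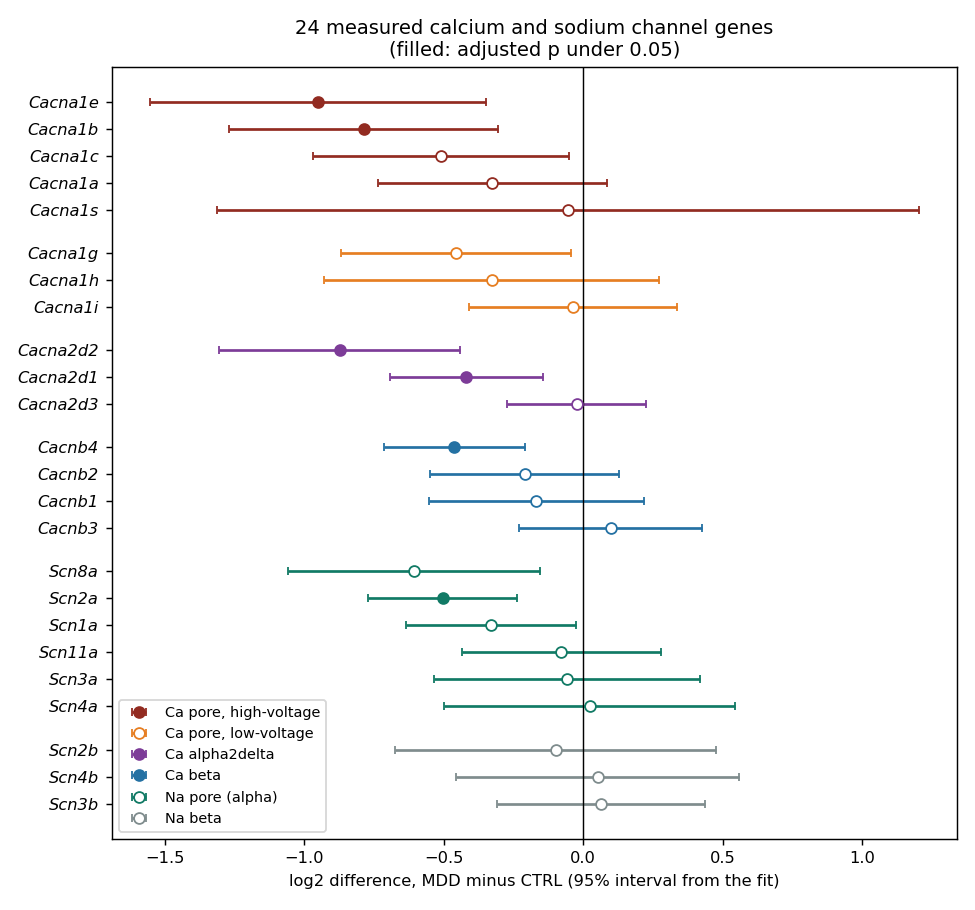
Log2 difference, MDD minus CTRL (horizontal axis), with the 95% interval of the limma fit for 24 of the 26 measured members (vertical axis), coloured by subunit class. Filled points passed an adjusted p of 0.05, and all 6 of them lie below 0, while the 3 sodium beta subunits drawn lie between -0.10 and 0.06.

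Gene length ran alongside the result. Every lower member was a gene of at least 100 kb in the GRCr8 gene table, with 6 of 14 such members lower and a median difference of -0.44, against 0 of 12 shorter members lower and a median of -0.04. Over all named genes of at least 100 kb, 15.1% were lower and 1.79% higher, with a median of -0.25, and of the shorter ones 5.47% were lower (6.68% of named genes of any length). Across the 26 members, the difference and length had a Spearman's rho of -0.60, and across all 11966 named genes a rho of -0.40. These are correlations across genes measured on the same 7 arrays, and genes are not independent replicates. The trend was present in every MDD pup set against the CTRL mean (rho of -0.30, -0.31 and -0.42) and near 0 for a CTRL pup set against its fellows (-0.05 to 0.07). When the trend with length and signal was taken out of every array, Cacna2d2 was the 1 member still called (log2 -0.62, adjusted p = 0.0465 by limma), whereas Scn2a (-0.36, adjusted p = 0.0532), Cacna1b (-0.58, adjusted p = 0.0599), Cacna1e (-0.64, adjusted p = 0.0844), Cacnb4 (-0.25, adjusted p = 0.164) and Cacna2d1 (-0.17, adjusted p = 0.320) were not. In that fit 4.61% of the named genes tested were called lower, so 1 of 26 members is not above the share over all. At an unadjusted p under 0.05, 5 of 26 members were lower and 2 higher, where 15.9% of the named genes tested were lower and 16.9% higher. Long members did not all differ alike, since Cacna2d3, which spans 813990 bases, had a difference of -0.02, and Cacna1e, which spans 488748 bases, one of -0.95.

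**Figure D3:**
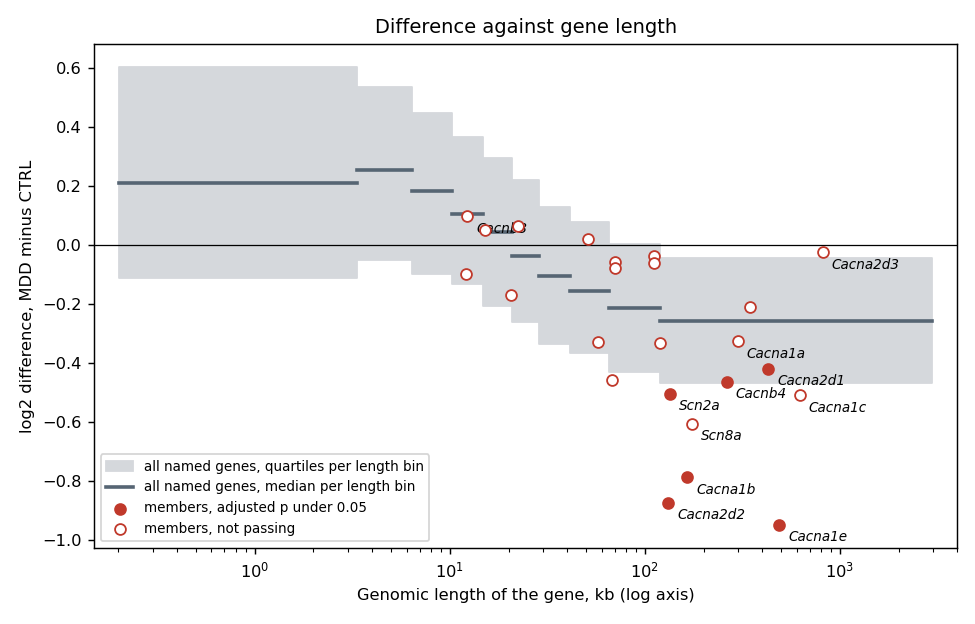
Log2 difference, MDD minus CTRL (vertical axis), against genomic length in kb (horizontal log axis) for 24 of the 26 members in red, filled where the adjusted p was under 0.05. Grey bars and dark lines give the quartiles and median of all named genes in 10 length bins, and all 6 filled points lie to the right, where the medians of all genes are also below 0.

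More than 1 probe was measured for 7 members, and the brighter probe stood for the gene. Cacna1b and Cacnb4 gave nearly the same difference on both probes, -0.79 and -0.72 for Cacna1b and -0.46 and -0.43 for Cacnb4, with the dimmer probe missing the threshold over all probes in each case (adjusted p = 0.0887 and 0.0575). For Cacna1a the order was turned, since the dimmer probe was called lower (log2 -0.66, SE 0.18, adjusted p = 0.0382) and the brighter was not (-0.33, adjusted p = 0.211). Probes of Cacna1c gave -0.51 and -0.14 and those of Cacna1g -0.46 and -0.28. For 2 genes the probes differed in sign, with -0.04 and 0.24 for Cacna1i and -0.17 and 0.28 for Cacnb1, and no probe of either passed.

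**Figure D4:**
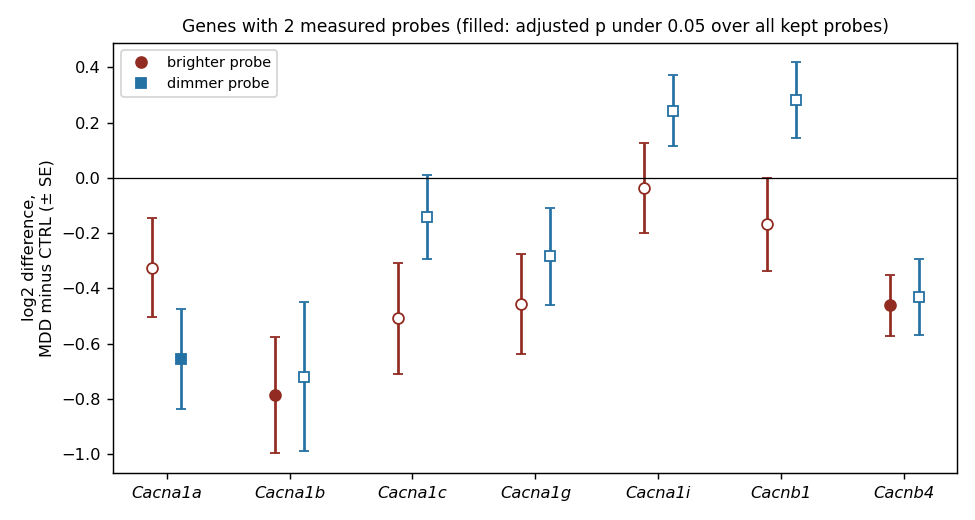
Log2 difference, MDD minus CTRL, with its SE (vertical axis) for both measured probes of 7 members (horizontal axis), with the brighter probe as a red circle and the dimmer as a blue square, filled where the adjusted p over all kept probes was under 0.05. Both probes lie below 0 for Cacna1a, Cacna1b, Cacna1c, Cacna1g and Cacnb4, and they lie on opposite sides for Cacna1i and Cacnb1.

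Pups of the MDD group did not contribute alike, although the 6 lower members kept a negative difference under all 19 alternatives run. That sign is no independent check, since these members were picked as lower on the same arrays. Changing the filter or the prior, or fitting named genes alone, left their differences as they were, and both row settings gave the same differences. Against the controls, the median over the 26 members was -0.29 in MDD replicate 1, -0.06 in replicate 2 and -0.41 in replicate 3, whereas each CTRL pup set against the other controls lay between -0.11 and 0.11. Of the 3 MDD pups, replicate 3 had the lowest value for 12 members, replicate 1 for 11 and replicate 2 for 3. Without MDD replicate 2, 10 members were lower, where 11.6% of everything tested was lower, the added ones being Scn8a, Cacna1c, Cacna1a and Cacna1g. Leaving out MDD replicate 1 left 2 (Cacna2d2 and Scn2a), MDD replicate 3 left 2 (Cacnb4 and Scn2a), CTRL replicate 1 left 1 (Cacna2d2), CTRL replicate 2 left 1 (Scn2a), and CTRL replicate 3 or 4 left 0. Of everything tested, 1.07% to 4.43% was lower in these 6 fits. At an unadjusted p under 0.05, 7 members were lower without CTRL replicate 3 and 7 without CTRL replicate 4, where 14.5% and 14.8% of everything tested was lower. Within the second row of the slide, where MDD can be set only against CTRL replicate 4, the 6 lower members had differences between -1.04 and -0.40 and 0 passed (adjusted p = 0.421 to 0.581), with 1 of 26 members lower at an unadjusted p under 0.05, where 3.95% of everything tested was lower. With the row as a block the differences were the same and 0 passed (adjusted p = 0.159 to 0.278), with 4 of 26 lower unadjusted, where 7.19% of everything tested was lower. Row and diet therefore cannot be told apart beyond that 1 control pup.

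**Figure D5:**
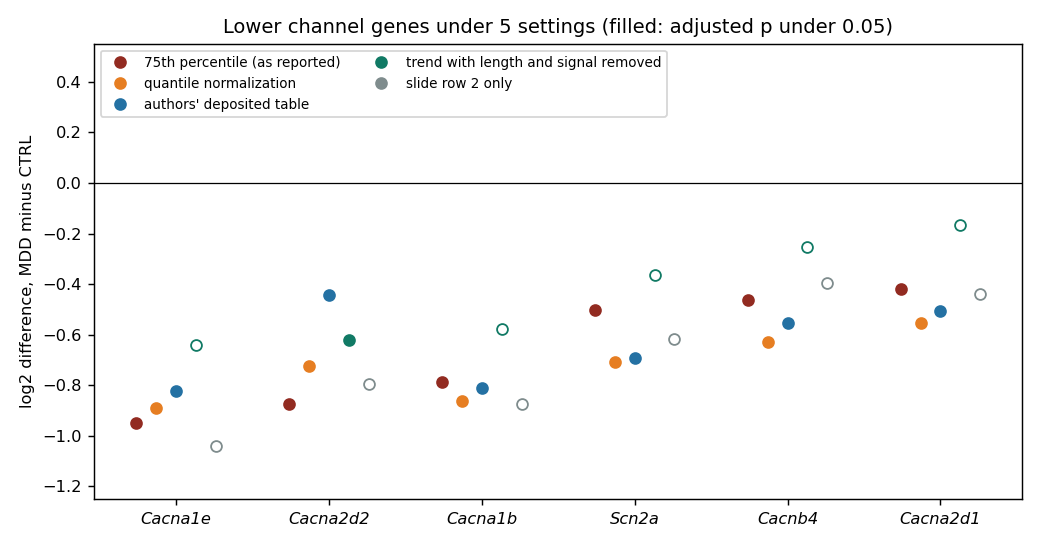
Log2 difference, MDD minus CTRL (vertical axis), of the 6 lower members (horizontal axis) under 5 settings, coloured by setting and filled where the adjusted p was under 0.05. Every point lies below 0, the authors' deposited table and quantile normalization keep 6 of 6 filled, removal of the trend with length and signal 1, and the second row of the slide 0.

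Genes that work with these channels are given by list, to be read against the 7.72% lower and 12.7% higher of everything tested. For named genes of at least 100 kb those shares were 15.1% and 1.79%. Of the lower genes named here and in the next paragraph, Nrcam, Nfasc, Unc79 and Slc8a1 are longer than 100 kb, and Snap25 and Calb1 are shorter. The part of gene length in these lists was not tested. Of 8 members of the Cacng family, which includes a muscle calcium channel subunit and the AMPA receptor partners called TARPs, 0 passed (median -0.26), and the smallest p belonged to Cacng2, the stargazin gene, at a log2 difference of -0.36 (adjusted p = 0.160). Of 9 measured genes that anchor or modulate sodium channels, 2 were lower and 0 higher (median -0.35). Nrcam, an adhesion molecule of the axon initial segment and node, gave -0.36, 0.17 and -0.69 in MDD, against 1.05, 0.33, 0.99 and 0.50 in CTRL. The groups lay apart, with MDD replicate 2 nearest the controls. Its log2 difference was -1.01 (SE 0.25, adjusted p = 0.0289), and Nfasc, which acts at the same sites, was 1.80-fold lower (SE 0.22, adjusted p = 0.0321). Of 15 measured partners of calcium channels, at the release site and elsewhere, 1 was lower and 0 higher (median -0.13), namely the vesicle fusion gene Snap25. It gave 2.97, 3.61 and 3.44 in MDD, against 4.21, 4.15, 4.32 and 4.23 in CTRL, so that all MDD pups were well below the closely grouped controls (log2 -0.89, SE 0.16, adjusted p = 0.0132). Of 2 measured genes of related cation channels, Unc79, a subunit gene of the sodium leak channel, was 1.59-fold lower (SE 0.13, adjusted p = 0.0166).

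Of 21 measured calcium signalling genes downstream of the channels, 3 were higher and 3 lower, with a median log2 difference of -0.15. The count of higher genes is near the share over everything tested, 12.7%. That of lower genes is above its share of 7.72%, but near the 15.1% of named genes of at least 100 kb. The median genomic length in this list was 96.5 kb. Calm3, a calmodulin gene, gave 4.66, 4.60 and 4.84 in MDD, against 3.56, 3.96, 3.70 and 3.81 in CTRL. All MDD pups were above all controls (1.92-fold higher, SE of log2 0.14, adjusted p = 0.00967). The sodium-calcium exchanger gene Slc8a1 was 1.82-fold lower (SE 0.21, adjusted p = 0.0282), and Calb1, the calcium buffer calbindin of Purkinje cells, 1.48-fold lower (SE 0.15, adjusted p = 0.0329). These lists were described by count and median, and no list was tested.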

How the data were processed

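Cerebellar RNA was measured on 1-colour (Cy3) Agilent arrays of design 028279, per the labels' protocols and the file headers. The deposited scanner tables hold linear intensities made with Feature Extraction 10.7.3.1 on a grid built on rn4, background-subtracted and detrended within the array, per the file headers. Their 0 or 1 flags, deposited as scores of the scanner software, mark spots above background, saturated or outlying. The authors' deposited normalized table holds linear intensities by a method the sources here do not state. Log2 means of its probes correlated with those of the unsubtracted median signal at 0.99999, and with the processed signal at 0.976. Its columns show the group but not the sample.

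Values here are log2 of the processed signal minus the array's 75th percentile, which ranged from 1140 to 2105 intensity units. Control spots and outlier flags were left out and spots of a probe averaged. Kept probes had at least 50% of their spots well above background in 3 or more of 7 arrays, which kept 22255 of 30367 probes. Symbols came from matching unversioned accessions to the RefSeq gene table of GRCr8, which named 18355 probes. The brightest kept probe stood for a gene. Of 32 genes in that table that meet the rule, Cacna1d and Scn7a had no matched probe and are not analysed here.

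Tests were two-sided, from limma 3.58.1 (lmFit and eBayes) under R 4.3.3, and adjusted over 11966 named genes and 8025 unnamed probes. Alternatives covered normalization, background, filters, probe choice, slide row, replicate number, the prior, single pups and removal of each array's loess trend with length and signal, over named genes only. Normexp was run on median signals and median backgrounds. The number of arrays limits the precision. Members shown in full are those that passed and the 8 others with the smallest p, with Cacna2d3 and Scn4b added outside that rule. Partner genes are up to 3 per list that passed, or the 1 with the smallest p. Members and lists were chosen with earlier results of these data known. Protein stretches that had been planned are not shown, and promoter windows are. Of the 26 measured members, 24 are described singly, and values of the others enter counts and medians but are not reported here.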

Additional observations from a re-analysis of the deposited data

How the results depend on the processing

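Of the 6 lower calls, 6 held with quantile normalization, the mean over probes, and in the fit of named genes alone with no trend removed (added after seeing the data), where 1392 genes were higher and 845 lower. The deposited table also called Cacna1g, and the stricter filter and the trended robust prior also Scn8a (7 lower each). Normexp lost Cacna2d2 (log2 -0.40, adjusted p = 0.0655, over all alternatives 0.00757 to 0.452), gave 875 lower genes over all and a member median of -0.083, and put 72.5% of all calls higher, against 62.2% as reported. With no filter on dim probes that share was 75.6%, 1205 genes were higher and 388 lower, and 1 member was lower (Cacna2d2). With the trend with length and signal removed, 785 named genes were higher and 552 lower, and 1 member was lower. With the slide row as a block 0 were higher and 2 lower over all (2630 and 1437 at an unadjusted p under 0.05), and within row 2 1 was higher and 7 lower, with 0 members in each. The replicate block, on pups sharing a number, called 0 genes (3486 higher and 2669 lower unadjusted) and 0 members (6 lower unadjusted). The labels do not say that a number marks a shared litter, and same-numbered pups correlated at 0.09, -0.15 and 0.24, so the numbers were not taken as pairs. Leaving out 1 pup, the range was 779 to 2904 genes higher, 213 to 2328 lower, 0 to 10 members lower, and a member median of -0.31 to -0.16.

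Members near 0 changed sign, none of them called. In the deposited table these were Cacna2d3 0.039, Cacnb2 0.013, Cacnb3 -0.27, Scn11a 0.099, Scn2b 0.046, Scn3a 0.021, Scn3b -0.069 and Scn4a -0.031. With quantile normalization they were Cacna1s 0.10, Cacnb3 -0.30, Scn11a 0.076, Scn2b 0.0063, Scn3a 0.060, Scn3b -0.085 and Scn4b -0.024. With normexp they were Cacna2d3 0.0071, Cacnb2 0.017, Scn11a 0.11 and Scn2b 0.023. With the trend removed they were Cacna1i 0.11, Cacna1s 0.15, Cacna2d3 0.29, Cacnb2 0.10, Cacnb3 -0.19, Scn11a 0.13, Scn3a 0.18, Scn3b -0.013 and Scn4b -0.062. Under the row block and within row 2 they were Cacna2d3 0.093, Cacnb3 -0.078 and Scn3b -0.068, under the replicate block Cacna1i 0.018 and Scn4a -0.12, and with the mean over probes Cacna1i 0.10 and Cacnb1 0.056. Leaving out 1 pup gave -0.12 to 0.071 for Cacna1i, -0.36 to 0.48 for Cacna1s, -0.15 to 0.060 for Scn11a, -0.32 to 0.033 for Scn2b, -0.20 to 0.14 for Scn3a, -0.049 to 0.24 for Scn3b, -0.12 to 0.21 for Scn4a and -0.14 to 0.32 for Scn4b. The cause was not tested. Signal over background limits Scn4a and Scn11a.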
